A study of Mus musculus with 12 samples.

Results

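Collagens are the structural proteins of the extracellular matrix, and the genes described here are those that encode collagen chains. They were taken as every protein-coding gene whose mouse symbol is Col, a type number, the letter a and a chain number, which gave 44 of the 56941 genes counted. Of these, 11 encode fibrillar chains, 6 basement membrane chains of type IV and 27 chains of other types. A filter on low counts left 20341 genes, among them 43 of the 44. Col10a1, a chain of hypertrophic cartilage, had 0 to 4 counts per library and was not tested.

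RNA was measured in the cerebellum of 12 mice aged 16 weeks, 3 in each of 4 groups. The SCA1 mice were heterozygous for the Atxn1 154Q/2Q knock-in allele, a model of spinocerebellar ataxia 1. The expanded repeat sits in the mouse's own Atxn1 gene, so that it is expressed wherever the gene is used. The WT mice were C57BL/6J littermates. Each genotype had a sedentary group and an exercise group with free access to a running wheel for 12 weeks, from 4 to 16 weeks of age. Exercise mice lived alone and sedentary mice in groups, so wheel running and housing cannot be told apart. Mice went through behavioural tests after removal of the wheels and were perfused with phosphate-buffered saline before the tissue was taken, each library came from 1 mouse, and the labels give no sex. RNA came from bulk cerebellar tissue of a frozen side of the brain, so all cell types are mixed.

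Collagen chains wind in threes into a helix in which each chain repeats a triplet of residues that starts with glycine, the only residue small enough to fit at its centre. Fibrillar chains hold 1 long helix and pack into fibrils, whereas type IV chains have a broken, flexible helix and form the sheets of basement membranes. In the brain, collagen is made mainly by the meninges, the vessel wall and the choroid plexus, and a few types are also made by neurons.

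The repeat can be read in the genes themselves. In the coding sequence of the Ensembl canonical transcript (GENCODE M39 on GRCm39), the longest unbroken run of glycine triplets, a glycine codon followed by any other pair of codons, was 216 to 344 triplets in the 11 fibrillar genes, with a median of 338. It was 39 to 66 triplets in the 6 type IV genes and 23 to 113 in the 27 others. Among 21726 other protein-coding genes the median was 2.0, and 29 of them (0.133%) had a run of 15 or more. The fibrillar genes are also built from repeated exons, since 305 of their 625 inner coding exons (48.8%) were exactly 54 bases long, or 6 triplets. Exons of that length made up 12 of 284 (4.225%) in the type IV genes, 152 of 1002 (15.17%) in the other types and 0.428% in all other protein-coding genes.

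**Figure D1:**
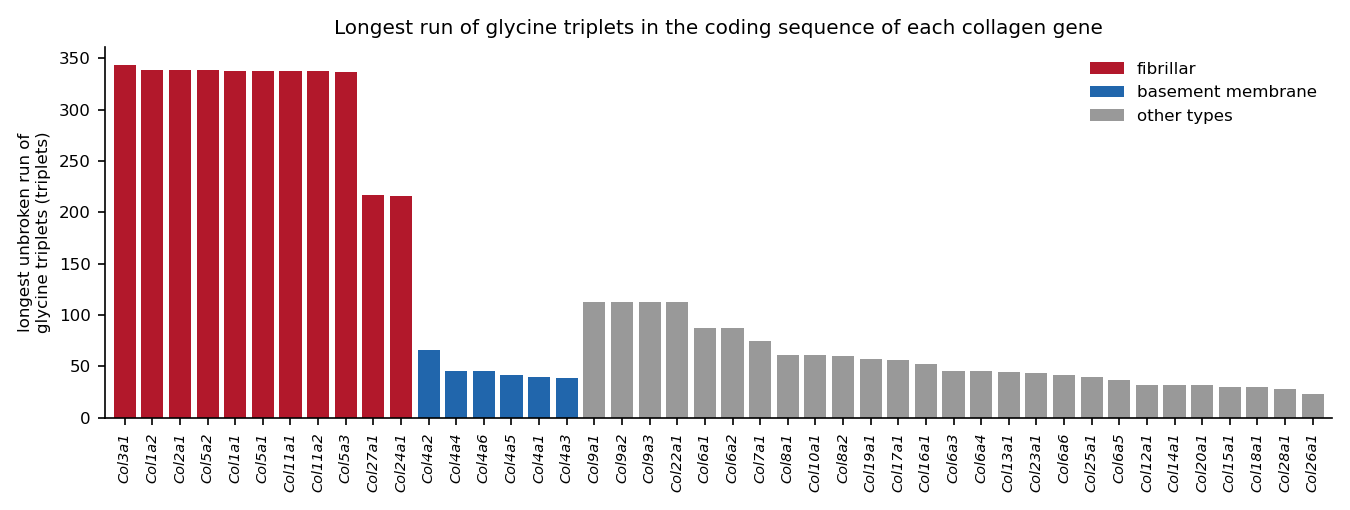
Bars give the longest unbroken run of glycine triplets (vertical axis, triplets) in the coding sequence of each of the 44 collagen genes, ordered within the fibrillar, basement membrane and other groups. Of the fibrillar genes, 9 stood at 337 to 344 triplets and Col24a1 and Col27a1 at 216 and 217, and no gene of the other groups passed 113.

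The sequences below show this pattern in the genes on which the results turn. Each is a stretch of coding exon from GRCm39, read 5′ to 3′ on the gene's own strand, with every glycine codon of the repeat in capitals. For Col3a1, a fibrillar chain, it is the 54-base exon at chr1:45364520-45364573 (plus strand). The type IV exons are the first inner coding exons built wholly of triplets, at chr8:11297006-11297095 for Col4a1 (minus), chr8:11448662-11448796 for Col4a2 (plus), chr1:82620930-82621019 for Col4a3 (plus), chr1:82518891-82519025 for Col4a4 (minus), chrX:140328660-140328749 for Col4a5 (plus) and chrX:140017070-140017204 for Col4a6 (minus). They are shown because the 6 chains fall into a pair of sets by exon length, with 90 bases in Col4a1, Col4a3 and Col4a5 and 135 in Col4a2, Col4a4 and Col4a6. For Col8a1 (chr16:57448402-57448455, minus) and Col8a2 (chr4:126204925-126204978, plus), the chains with the largest differences between groups, the first 54 bases of the longest run are shown. Each of these runs lies within 1 exon, of 1904 and 1916 bases. For Col12a1 (chr9:79521631-79521684, minus) and Col18a1 (chr10:76915095-76915121, minus) the first inner exon of triplets is given.
Col3a1: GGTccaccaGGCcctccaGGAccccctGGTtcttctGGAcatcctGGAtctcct
Col4a1: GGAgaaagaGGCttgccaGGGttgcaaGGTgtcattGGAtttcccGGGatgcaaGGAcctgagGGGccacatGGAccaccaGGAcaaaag
Col4a3: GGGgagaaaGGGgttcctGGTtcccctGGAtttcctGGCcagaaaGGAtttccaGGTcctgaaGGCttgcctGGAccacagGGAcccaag
Col4a5: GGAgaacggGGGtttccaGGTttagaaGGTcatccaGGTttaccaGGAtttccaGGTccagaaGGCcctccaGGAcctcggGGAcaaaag
Col4a2: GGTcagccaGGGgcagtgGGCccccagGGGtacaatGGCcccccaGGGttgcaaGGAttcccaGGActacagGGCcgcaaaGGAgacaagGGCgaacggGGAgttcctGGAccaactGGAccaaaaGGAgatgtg
Col4a4: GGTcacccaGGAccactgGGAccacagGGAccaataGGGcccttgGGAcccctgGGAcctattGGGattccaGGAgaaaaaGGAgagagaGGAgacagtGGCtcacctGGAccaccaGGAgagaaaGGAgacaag
Col4a6: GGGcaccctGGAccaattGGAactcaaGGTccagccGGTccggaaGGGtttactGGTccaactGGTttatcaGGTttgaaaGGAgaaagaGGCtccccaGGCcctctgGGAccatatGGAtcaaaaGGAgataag
Col8a1: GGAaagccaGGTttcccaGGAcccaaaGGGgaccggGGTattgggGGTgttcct
Col8a2: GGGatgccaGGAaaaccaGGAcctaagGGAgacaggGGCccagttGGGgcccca
Col12a1: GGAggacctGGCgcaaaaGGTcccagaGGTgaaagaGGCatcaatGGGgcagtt
Col18a1: GGTgaccctGGTgaagatGGGagaccg

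The type IV genes also lie in pairs, head to head on opposite strands. On chromosome 1 the canonical transcripts of Col4a4 and Col4a3 started at bases 82564800 and 82564697 and overlapped by 103 bases. On chromosome 8 those of Col4a1 and Col4a2 overlapped by 317 bases, and on chromosome X the starts of Col4a6 and Col4a5 were 1282 bases apart.

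The reverse-strand counts used here summed to between 20556802 and 32127508 read pairs per library. Levels are given as CPM, the counts divided by the scaled size of the library, and levels of different genes are compared only as CPM per kilobase of exon. Markers of granule cells and Purkinje cells, which define the cerebellum, were high in each library, at summed levels of 3069 to 6334 CPM and 4241 to 7959 CPM over 8 genes each. The libraries of SCA1 sedentary mouse 16 and SCA1 exercise mouse 55 stood apart. A list of 9 genes of the brainstem, mostly Hox genes, summed to 37.3 and 46.1 CPM in them against 0.0417 to 3.68 CPM in the other 10, and all 9 were detected in both libraries, whereas 0 to 8 were at 0 counts in the others. Their granule cell sums were the lowest of the 12, at 3069 and 4037 CPM. Their oligodendrocyte sums were the highest, at 7026 and 5604 CPM. Read pairs that map to several places made up 6.38% and 6.33% of these libraries, against 2.08% to 3.46% of the other 10. Pairs outside counted genes made up 39.3% and 44.1%, the lowest shares of the 12. Counts or medians over the collagen genes are also given without mouse 16, mouse 55 or both, while most single genes are given only with them. Transcripts of the Y chromosome were near 0 in WT exercise mouse 201, SCA1 sedentary mouse 194 and SCA1 exercise mice 55 and 122, so the 3 WT sedentary libraries were alike in sex while each other group was mixed.

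Collagen transcripts made up 0.0427% to 0.0681% of the counts in a library. In WT sedentary mice the summed level was 65.6 ± 10.1 CPM per kilobase (SD, n = 3), and with exercise it was 75.3 ± 3.68. In SCA1 mice it was 75.4 ± 13.2 when sedentary and 68.5 ± 15.7 with exercise, so the groups overlapped. Fibrillar genes held 21.6% to 31.2% of this sum across the 12 libraries, basement membrane genes 8.85% to 13.1% and the other types 56.6% to 68.9%. The smallest fibrillar share was in WT exercise mouse 121 and the largest in WT sedentary mouse 192, and the largest basement membrane share was in SCA1 sedentary mouse 16.

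Col18a1, a chain found in basement membranes that is the source of the fragment endostatin, had the highest level of all in WT sedentary mice. It stood at 15.5 ± 1.82 CPM per kilobase there and held 23.7% of the collagen sum. It was followed by Col9a3, a chain of type IX that decorates fibrils, at 6.33 ± 0.41 CPM per kilobase, and the 6 highest genes together held 53.9% of the sum. The other genes outside the fibrillar and basement membrane groups with high levels were Col19a1 (3.37 CPM per kilobase), Col9a2 (3.11), Col23a1 (1.76), Col20a1 (1.70), Col16a1 (1.46) and Col7a1 (1.33), of which Col19a1, Col20a1 and Col16a1 belong with type IX to the collagens that lie along fibrils. Type XXIII, by contrast, is anchored in the cell membrane, and type VII forms the anchoring fibrils of epithelia.

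Among fibrillar genes in WT sedentary mice, Col5a1, whose product starts fibril assembly, was highest at 3.84 ± 0.83 CPM per kilobase. Col27a1 stood at 3.17 ± 1.12, Col1a1 at 2.92 ± 2.35, Col11a2 at 2.59 ± 0.11 and Col1a2 at 2.51 ± 0.73 CPM per kilobase. Their order could not be told apart, since the spread between mice exceeded the steps between neighbours. The rest ranged from 1.44 CPM per kilobase in Col5a3 down to 0.177 in Col24a1. Col1a1 and Col1a2 encode the chains of type I, and the ratio of Col1a1 to Col1a2 per kilobase ran from 0.601 to 1.71 over the 12 libraries. The highest ratio came from WT sedentary mouse 192, in which Col1a1 was 37.0 CPM against 10.2 and 10.4 in the other WT sedentary mice.

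Among the type IV genes, Col4a1 and Col4a2, the chains of nearly all basement membranes, were highest in WT sedentary mice, at 2.42 ± 0.50 and 2.23 ± 0.52 CPM per kilobase. The ratio of Col4a1 to Col4a2 stayed between 0.707 and 1.24 over the 12 libraries. Col4a5 stood at 0.881 ± 0.018 CPM per kilobase, Col4a6 at 0.329 ± 0.070, Col4a3 at 0.114 ± 0.023 and Col4a4 at 0.102 ± 0.017. These 4 encode the chains of more specialised basement membranes, such as that of the kidney glomerulus. Col4a1 and Col4a2 did not differ beyond their spread, nor did Col4a3 and Col4a4, while the steps from Col4a2 to Col4a5, to Col4a6 and to Col4a3 were larger than the spread of either neighbour.

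**Figure D2:**
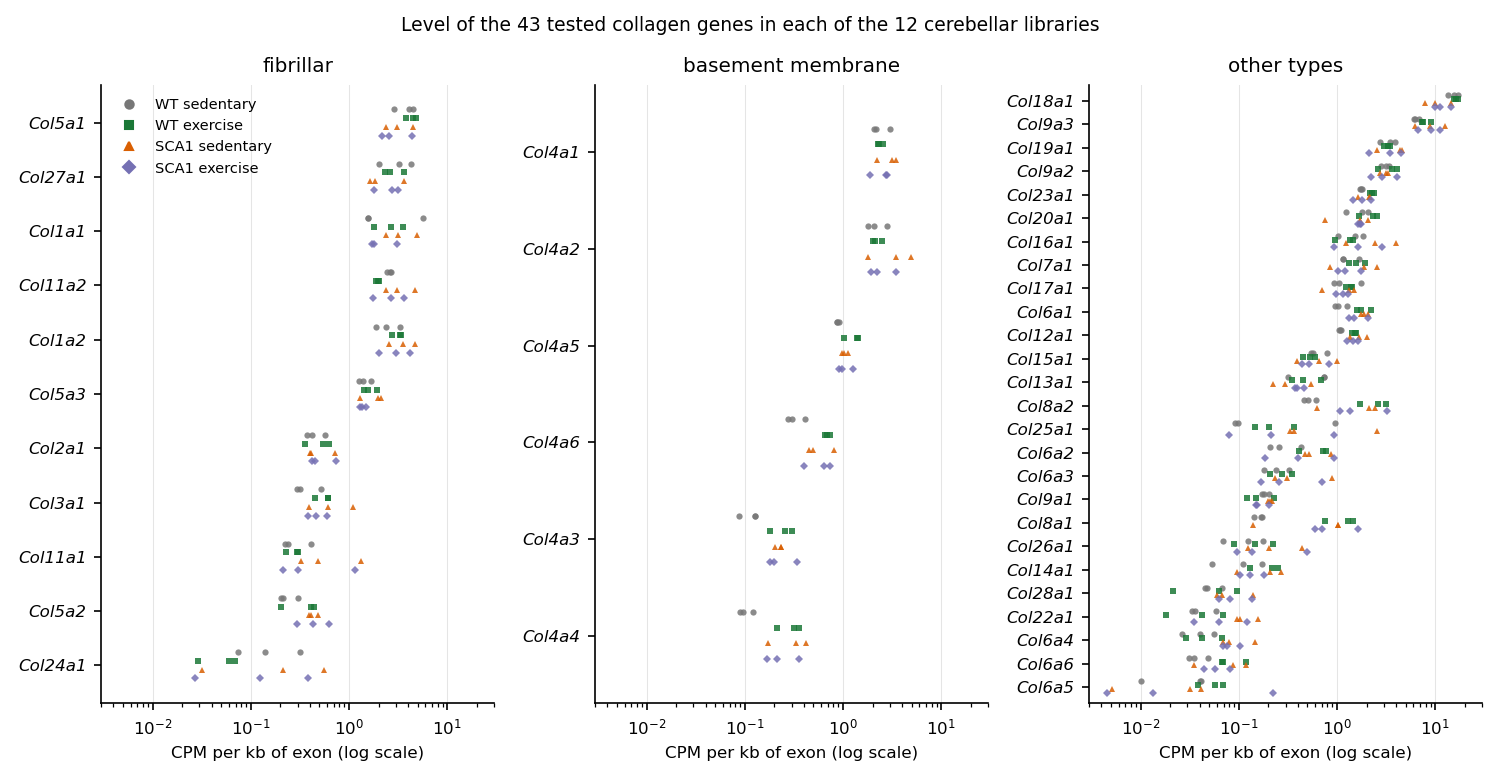
Each point is 1 library, with the level in CPM per kilobase of exon on a logarithmic axis and the 43 tested genes ordered within each group by their WT sedentary level. Col18a1 lies between 7.84 and 17.3 and is the highest gene in 11 of the 12 libraries, with Col9a3 above it at 8.92 in SCA1 sedentary mouse 16, and the grey WT sedentary points of Col4a3, Col4a4, Col4a6, Col8a1 and Col8a2 lie to the left of most others in their row.

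The collagen genes varied more from library to library than most genes. For the 37 with at least 10 counts in every library the median ratio of the highest to the lowest library was 2.72, against 1.74 for the 17086 tested genes with such counts. The largest ratios were those of Col25a1 (32.5), Col8a1 (11.7), Col26a1 (7.13), Col8a2 (7.0) and Col11a1 (6.18).

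Col25a1, a membrane-bound collagen of neurons, was 1.20, 1.28 and 12.4 CPM in WT sedentary mice, 1.93, 2.67 and 4.77 in WT mice with exercise, 33.5, 4.80 and 4.38 in sedentary SCA1 mice and 12.3, 2.75 and 1.03 in exercised SCA1 mice. The high values were those of WT sedentary mouse 192 and of mice 16 and 55. Col11a1, a fibrillar chain that sets the width of thin fibrils, was 17.0 CPM in SCA1 sedentary mouse 16 and 14.6 CPM in SCA1 exercise mouse 55. The other 10 libraries lay between 2.75 and 6.20 CPM. Col26a1 had its highest levels in the same libraries, at 3.60 and 4.05 CPM against 0.568 to 1.84 CPM elsewhere. Mice 16 and 55 also had the highest levels of Col11a2, Col16a1, Col24a1 and Col6a3. These are the libraries with high brainstem and oligodendrocyte sums and a high share of read pairs that map to several places. The part of these traits in the collagen levels was not tested.

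The first comparison asked how the collagen genes differed between SCA1 and WT mice without exercise. None of the 43 tested genes passed the threshold of an adjusted p under 0.05 with an absolute log2 fold change (log2FC) over 0.5 in edgeR, where 0.0344% of all genes did. At an unadjusted p under 0.05, 13 were higher in SCA1 sedentary mice and 1 was lower, against 5.55% of all genes higher and 4.55% lower. In 11 genes each SCA1 sedentary library lay above each WT sedentary library, and in 0 below, against 5.6% and 5.76% of all genes. The median log2FC over the 43 genes was 0.61, with 35 higher and 8 lower, beside a median of 0.02 over all genes. It was 0.39 in fibrillar genes (9 of 11 higher), 0.72 in basement membrane genes (6 of 6 higher) and 0.68 in the other types (20 of 26 higher). Fewer cells of a type and less RNA per cell cannot be told apart in such bulk samples.

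Of the fibrillar genes, Col5a2 and Col3a1 were among the 13. Col5a2, a chain of type V, was 2.37, 2.27 and 3.396 CPM in WT sedentary and 5.40, 4.63 and 4.38 CPM in SCA1 sedentary mice. The groups did not overlap, with a log2FC of 0.84 ± 0.33 (SE) and an adjusted p of 0.414. Col3a1, the chain of type III found with type I in soft tissue, was 3.06, 3.25 and 5.40 CPM in WT sedentary and 11.3, 6.24 and 3.99 CPM in SCA1 sedentary mice. These groups overlapped, and the log2FC was 0.89 ± 0.35 (adjusted p = 0.431).

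Of the basement membrane genes, Col4a4, Col4a3 and Col4a6 were among them. Col4a4 was 1.39, 1.03 and 1.09 CPM in WT sedentary and 3.78, 4.76 and 1.97 CPM in SCA1 sedentary mice (log2FC 1.58 ± 0.37, adjusted p = 0.195). Col4a3 was 1.26, 1.28 and 0.868 CPM in WT sedentary and 2.33, 2.04 and 2.31 CPM in SCA1 sedentary mice (log2FC 0.97 ± 0.31, adjusted p = 0.321). Col4a6 was 2.18, 2.44 and 3.25 CPM in WT sedentary and 3.57, 3.95 and 6.45 CPM in SCA1 sedentary mice (log2FC 0.83 ± 0.28, adjusted p = 0.360). In each of these genes all SCA1 sedentary mice lay above all WT sedentary mice. Of the stranded counts at Col4a4, 21.5% fell on the opposite strand, the strand of Col4a3. Col4a1 and Col4a2, by comparison, had a log2FC of 0.29 ± 0.20 and 0.61 ± 0.31.

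Of the other types, Col12a1 had the smallest adjusted p of the family. This chain of type XII, which links fibrils to the surrounding matrix, was 16.9, 16.2 and 16.6 CPM in WT sedentary and 20.8, 25.6 and 30.7 CPM in SCA1 sedentary mice (log2FC 0.63 ± 0.14, adjusted p = 0.171). Col6a1, a chain of the beaded filaments of type VI, was 5.65, 6.03 and 7.36 CPM in WT sedentary and 10.9, 11.98 and 10.4 CPM in SCA1 sedentary mice (log2FC 0.80 ± 0.20, adjusted p = 0.221). Both groups of values stood apart. Col8a2, a chain of the short network-forming type VIII, was 3.06, 2.56 and 2.30 CPM in WT sedentary and 12.2, 10.6 and 3.13 CPM in SCA1 sedentary mice (log2FC 1.71 ± 0.49, adjusted p = 0.285). Its partner Col8a1 had the highest log2FC of the comparison, at 2.17 ± 0.61 (adjusted p = 0.274), but overlapped, with 1.36, 1.33 and 1.13 CPM in WT sedentary and 7.98, 8.07 and 1.11 CPM in SCA1 sedentary mice. SCA1 sedentary mouse 195 was at the WT sedentary level in Col8a1, whereas it had the highest levels of all 12 libraries in Col12a1 and Col4a6.

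The remaining genes with an unadjusted p under 0.05 had a log2FC of 1.25 ± 0.44 in Col6a4, 1.46 ± 0.52 in Col22a1, 0.55 ± 0.23 in Col9a3 and 1.06 ± 0.47 in Col6a6, with adjusted p between 0.370 and 0.480. Col6a4, Col6a6 and Col22a1 were near the limit of detection, with 4 to 42 counts per library. Col18a1 was the 1 gene that was lower. It was 96.4, 110.8 and 122.1 CPM in WT sedentary and 55.4, 103.6 and 69.8 CPM in SCA1 sedentary mice, which overlapped (log2FC -0.53 ± 0.20, adjusted p = 0.406). Col13a1, a membrane-bound collagen, had the lowest log2FC at -0.77 ± 0.40 (adjusted p = 0.554).

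The number of calls in this comparison moved with the libraries and the tool. Without mice 16 and 55, Col12a1 (log2FC 0.78, adjusted p = 0.00815) and Col6a1 (log2FC 0.84, adjusted p = 0.0434) passed the threshold, beside 205 genes (1.00%) in all, and the median log2FC of the family was 0.31. It was 0.29 without mouse 16 alone. DESeq2 on the 12 libraries called Col12a1, Col4a4, Col6a1 and Col8a2, beside 201 genes (1.03% of those with an adjusted p) in all.

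**Figure D3:**
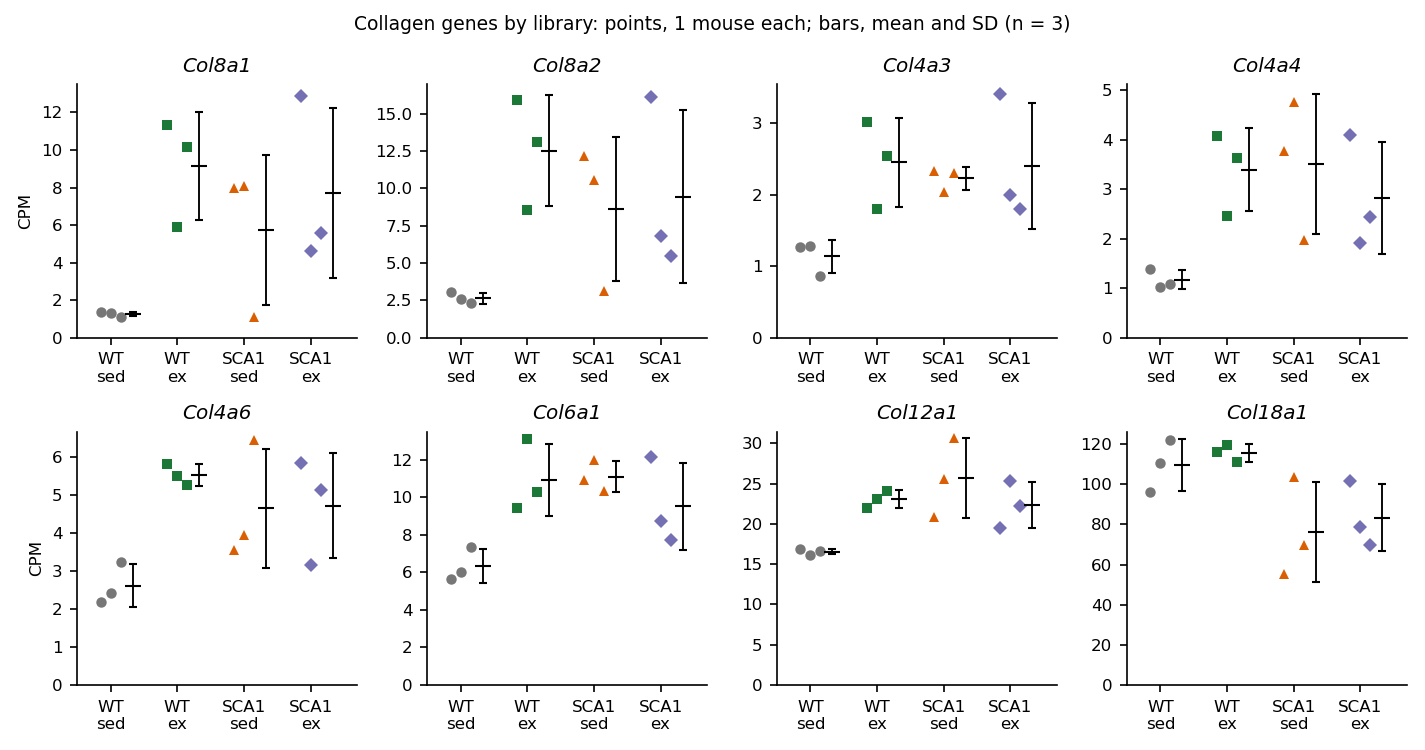
Points are the CPM (vertical axis from 0) of single libraries in the 4 groups for 8 collagen genes, and bars give the mean and SD of 3 mice. The WT sedentary points are low and close together in Col8a1, Col8a2, Col4a3, Col4a4, Col4a6, Col6a1 and Col12a1, and in Col18a1 SCA1 mice are lower than WT mice with some overlap.

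The second comparison asked what 12 weeks of wheel running were associated with in WT mice. It shares the 3 WT sedentary libraries with the first, so the results of these comparisons are not independent. None of the 43 genes passed the threshold in edgeR, as did none of all genes (0.0%). At an unadjusted p under 0.05, 10 were higher in WT exercise mice and 0 lower, against 2.78% of all genes higher and 1.91% lower. The groups did not overlap in 11 genes that were higher and 2 that were lower, against 10.1% and 11.1% of all genes. The median log2FC was 0.18 over the family, 0.17 in fibrillar genes, 0.81 in basement membrane genes and 0.22 in the other types, beside 0.00 over all genes.

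Col8a1 and Col8a2 had the highest log2FC. Col8a1 was 1.36, 1.33 and 1.13 CPM in WT sedentary and 11.4, 5.88 and 10.2 CPM in WT exercise mice (log2FC 2.84 ± 0.62, adjusted p = 0.371), and Col8a2 was 16.0, 8.55 and 13.1 CPM in WT exercise mice (log2FC 2.24 ± 0.50, adjusted p = 0.406). All WT exercise mice lay above all WT sedentary mice in both. Without mice 16 and 55 both passed the threshold, with adjusted p of 0.0308 and 0.0226, beside 64 genes (0.312%) in all. SCA1 sedentary mouse 195 is in neither WT group and enters only through the spread, the scaling and the gene filter that all libraries share. Without it, Col8a1 was the 1 collagen gene that passed (adjusted p = 0.0336), beside 19 genes (0.0909%) in all. DESeq2 called Col8a1, Col8a2 and Col4a4, beside 63 genes (0.268% of those with an adjusted p) in all, and edgeR on the WT mice alone called these 3 with Col4a6 and Col6a1, beside 150 genes (0.777%) in all.

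Of the basement membrane genes, Col4a3 to Col4a6 were the ones with an unadjusted p under 0.05. Col4a4 was 4.07, 2.46 and 3.64 CPM in WT exercise mice (log2FC 1.53 ± 0.37, adjusted p = 0.465) and Col4a3 3.02, 1.79 and 2.55 CPM (log2FC 1.11 ± 0.31, adjusted p = 0.678). Col4a6 was 5.83, 5.51 and 5.25 CPM (log2FC 1.08 ± 0.28, adjusted p = 0.569) and Col4a5 9.68, 13.1 and 13.1 CPM against 8.08, 8.20 and 8.42 CPM in WT sedentary mice (log2FC 0.54 ± 0.17, adjusted p = 0.771). The 4 genes showed no overlap between the groups. Col4a1 and Col4a2, by contrast, had a log2FC of -0.02 ± 0.20 and -0.01 ± 0.31.

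Col6a1 was 9.42, 13.1 and 10.3 CPM in WT exercise mice (log2FC 0.78 ± 0.20, adjusted p = 0.526) and Col12a1 21.9, 23.1 and 24.1 CPM (log2FC 0.48 ± 0.14, adjusted p = 0.749), above all WT sedentary mice in each case. Col23a1 and Col6a6 had a log2FC of 0.37 ± 0.17 and 1.11 ± 0.47, each with an adjusted p of 0.958. Col6a6 had 7 to 27 read counts per library, and 37.3% of its stranded counts fell on the opposite strand. Col24a1, a minor fibrillar chain, had the lowest log2FC at -1.73 ± 1.00 (adjusted p = 0.958). It was 0.568, 1.07 and 2.42 CPM in WT sedentary and 0.219, 0.459 and 0.525 CPM in WT exercise mice. Col11a2 was likewise lower in all WT exercise mice, at 13.9, 15.2 and 14.8 CPM against 19.6, 18.3 and 19.8 CPM (log2FC -0.40 ± 0.26).

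The marker lists of choroid plexus and of meninges differed between the groups as well, and those of mural cells and endothelium did not set WT sedentary mice apart. The summed level of 10 choroid plexus genes was 429, 160 and 22.2 CPM in WT sedentary mice and 2001, 865 and 1106 CPM with exercise. In SCA1 mice it was 858, 1224 and 30.2 CPM when sedentary and 1685, 561 and 898 CPM with exercise. All 10 genes were detected in 11 libraries, and 1 was at 0 counts in WT sedentary mouse 192. The 4 libraries with the lowest sums, those of WT sedentary mice and SCA1 sedentary mouse 195, were also the 4 with the lowest Col8a1 and the lowest Col8a2. In SCA1 sedentary mouse 195, with a choroid plexus sum of 30.2 CPM, Col12a1 was 30.7 CPM, Col4a6 6.45 CPM, Col6a1 10.4 CPM and Col4a3 2.31 CPM, each above all WT sedentary mice. The summed level of 12 genes of meninges and fibroblasts was 31.3 to 42.0 CPM in sedentary and 55.1 to 71.1 CPM in exercised WT mice, and 51.1 to 84.1 CPM in sedentary and 35.5 to 85.3 CPM in exercised SCA1 mice, with all 12 detected in each library. In SCA1 sedentary mouse 195 the meninges and fibroblast sum was 58.5 CPM, above all WT sedentary mice. The sum of 10 genes of mural cells ran from 202 to 234 CPM in WT sedentary mice. In the others it ran from 202 to 265 CPM. That of 10 genes of endothelium ran from 209.5 to 222 CPM in WT sedentary mice and from 173 to 253 CPM in the others. Lists of other cell types differed between the WT groups too. The sum of 7 oligodendrocyte genes was 4239, 3269 and 3718 CPM in WT sedentary mice and 2799, 2721 and 2869 CPM with exercise, with no overlap, and all 7 had a negative log2FC (median -0.45, 0 at an unadjusted p under 0.05). The sum of 7 microglia genes was 97.0 to 109.7 CPM in WT sedentary and 82.8 to 89.3 CPM in exercised WT mice, again with no overlap, and all 7 had a negative log2FC (median -0.25, 1 at an unadjusted p under 0.05). The part of these cell types in the collagen results was not tested.

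**Figure D4:**
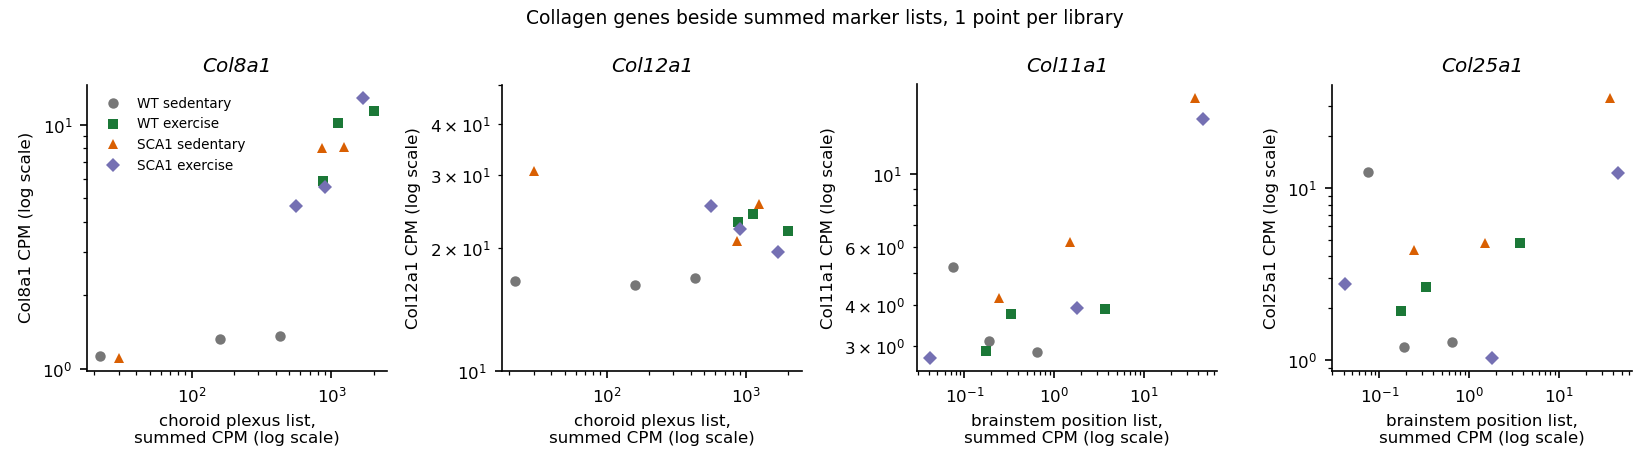
Each point is 1 library, with the summed CPM of a marker list on the horizontal axis and the CPM of a collagen gene on the vertical axis, both logarithmic. Col8a1 was lowest in the 4 libraries with the lowest choroid plexus sums. Col12a1 was highest in a library with a choroid plexus sum of 30.2 CPM and a meninges and fibroblast sum, not drawn, of 58.5 CPM. Col11a1 was highest in the libraries with brainstem sums of 37.3 and 46.1 CPM. Col25a1 was highest in the library with a brainstem sum of 37.3 CPM. In WT sedentary mouse 192, with a brainstem sum of 0.0755 CPM, Col25a1 was as high as in the library with 46.1 CPM.

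The third comparison, of SCA1 and WT mice that had both exercised, shares no library with the first and shares the WT exercise libraries with the second. None of the 43 genes passed the threshold in edgeR (0.0% of all genes), and DESeq2 also called none. At an unadjusted p under 0.05, 0 genes were higher and 1 was lower in SCA1 exercise mice, against 1.45% of all genes higher and 1.48% lower. The groups did not overlap in 1 gene that was higher and 1 that was lower, against 7.32% and 6.92% of all genes. The median log2FC was -0.05, with 19 genes higher and 24 lower. Col18a1 was the gene that was lower, at 101.8, 78.7 and 69.9 CPM in SCA1 exercise and 116.2, 119.8 and 111.1 CPM in WT exercise mice (log2FC -0.47 ± 0.20, adjusted p = 0.960), and its groups did not overlap. The gene with no overlap that was higher was Col6a4, with 0.873, 0.584 and 0.643 CPM against 0.570, 0.250 and 0.364 CPM. It was near the limit of detection, with 6 to 35 read counts per library. Col24a1 had the highest log2FC at 1.74 ± 1.00 and Col5a1 the lowest at -0.53 ± 0.28, each with an adjusted p of 0.960. The Col24a1 value rests on SCA1 exercise mouse 55 with 2.90 CPM, beside 0.209 and 0.943 CPM in the other mice of its group. These counts turned on single mice of the SCA1 exercise group. Without mouse 55, 0 genes were higher and 7 lower at an unadjusted p under 0.05 (1.16% and 2.09% of all genes), and the median log2FC was -0.36. Without mouse 122, 3 were higher and 0 lower (2.59% and 1.88% of all genes), and the median was -0.02.

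The fourth comparison asked what exercise was associated with in SCA1 mice. It shares the SCA1 sedentary libraries with the first and the SCA1 exercise libraries with the third, so it is not independent of them. None of the 43 genes passed the threshold in edgeR (0.0% of all genes) or in DESeq2. At an unadjusted p under 0.05, 0 genes were higher and 0 lower, against 1.19% and 0.978% of all genes, and the groups overlapped in all 43 genes, against 2.43% of all genes with no overlap that were higher and 2.07% that were lower. The median log2FC was -0.20, with 13 genes higher and 30 lower. Col6a5 had the highest log2FC at 1.58 ± 1.05 and Col25a1 the lowest at -1.41 ± 1.05, each with an adjusted p of 0.999. Both values rest on single libraries. Col6a5 was 2.10 CPM in SCA1 exercise mouse 55 and 0.125 and 0.0429 CPM in the others of its group, and without mouse 55 its log2FC was -1.51. Col25a1 was 33.5 CPM in SCA1 sedentary mouse 16, and without that mouse its log2FC was 0.23. The number of genes lower at an unadjusted p under 0.05 was 7 without mouse 55 (3.62% of all genes), 5 without mouse 195 (3.64%) and 3 without mouse 16 (5.64%), with 0 higher in each. The median log2FC of the family was -0.42 without mouse 55, -0.30 without mouse 195, -0.28 without mice 16 and 55 and -0.05 without mouse 16, and it ran from -0.42 to -0.05 over all single omissions.

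**Figure D5:**
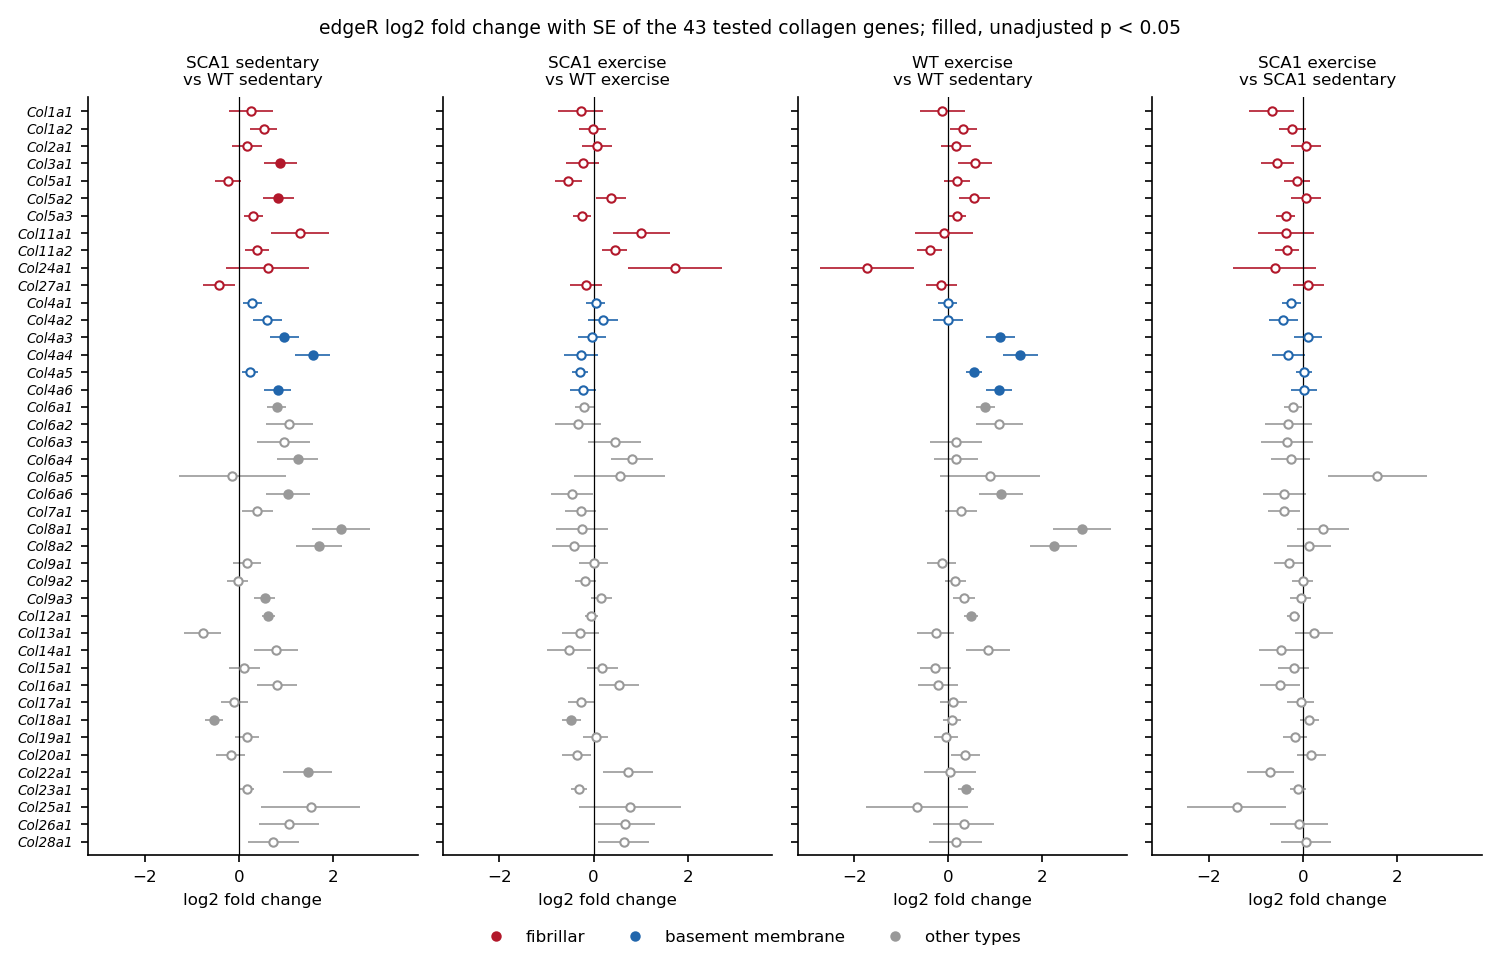
Points give the edgeR log2FC (horizontal axis) of the 43 tested genes with its SE in the 4 group comparisons, coloured by structural group and filled where the unadjusted p was under 0.05. In the 2 comparisons with WT sedentary mice 14 and 10 genes were filled, nearly all to the right of 0, and in those of SCA1 exercise mice 1 and 0 were.

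The interaction term asked whether the log2FC of exercise differed between SCA1 and WT mice. None of the 43 genes passed the threshold in edgeR (0.0% of all genes) or in DESeq2. The term had an unadjusted p under 0.05 and was positive in 0 genes and negative in 9, against 1.57% and 2.21% of all genes, and the median of the term was -0.43. The 9 were Col4a4 (-1.84 ± 0.51), Col6a1 (-1.002 ± 0.28), Col12a1 (-0.68 ± 0.20), Col8a2 (-2.11 ± 0.68), Col8a1 (-2.42 ± 0.82), Col4a6 (-1.05 ± 0.40), Col4a3 (-0.99 ± 0.43), Col6a6 (-1.51 ± 0.65) and Col3a1 (-1.12 ± 0.50), each with an adjusted p of 1.00. Col8a1 had the lowest value and Col24a1 the highest, at 1.12. Col6a6 was near the limit of detection. Without mice 16 and 55 the term was positive in 0 genes and negative in 13 at an unadjusted p under 0.05, against 6.86% and 7.92% of all genes, and its median was -0.60. The median was -0.67 without mouse 55 alone and -0.21 with a block for bands of mouse numbers. These bands were mice 16 and 55, mice 116 to 122, and mice 192 to 201. The WT sedentary libraries, in which these genes were low, enter this term as well as the first and second comparisons.

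Over both activity groups, none of the 43 genes passed the threshold between SCA1 and WT mice in edgeR, where 0.118% of all genes did, and DESeq2 also called none. The unadjusted p was under 0.05 for 11 genes higher in SCA1 mice and 1 lower, against 5.56% and 4.25% of all genes. Col18a1 was the lower gene and had the smallest adjusted p (log2FC -0.50 ± 0.14, adjusted p = 0.246). Of the higher genes, Col6a4 had a log2FC of 1.04 ± 0.31 (adjusted p = 0.291), Col22a1 1.10 ± 0.37, Col12a1 0.29 ± 0.10, Col11a1 1.16 ± 0.43 and Col5a2 0.60 ± 0.23. Col4a4 (0.66 ± 0.26), Col8a1 (0.96 ± 0.41), Col11a2 (0.42 ± 0.18), Col16a1 (0.68 ± 0.30), Col9a3 (0.36 ± 0.16) and Col4a3 (0.47 ± 0.21) followed, with adjusted p up to 0.504. Col24a1 had the highest log2FC at 1.18 and Col13a1 the lowest at -0.52. Col6a4 and Col22a1 were near the limit of detection, with 6 to 35 and 4 to 42 read counts per library. Without mice 16 and 55 the counts were 3 higher and 3 lower, against 6.16% and 5.57% of all genes. With a covariate from chromosome Y genes they were 5 higher and 3 lower, against 3.97% and 3.74% of all genes. With a block for bands of mouse numbers they were 3 higher and 4 lower, against 3.74% and 5.17% of all genes. The band of mice 16 and 55 holds no WT mouse, so the genotypes cannot be compared within it. Mouse 192 is the only WT sedentary mouse in a band with SCA1 sedentary WT comparisons, since mice 194 and 195 share its band. The block is therefore bound up with genotype.

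Over both genotypes, none of the 43 genes passed the threshold between exercise and sedentary mice in edgeR (0.0% of all genes) or in DESeq2. The unadjusted p was under 0.05 for 6 genes higher with exercise and 0 lower, against 2.16% and 1.39% of all genes. They were Col8a1 (log2FC 1.63 ± 0.42), Col8a2 (1.18 ± 0.34), Col4a3 (0.61 ± 0.21), Col4a6 (0.55 ± 0.20), Col4a5 (0.28 ± 0.12) and Col4a4 (0.60 ± 0.26), each with an adjusted p of 0.945. The lowest log2FC was that of Col24a1, at -1.16. Without mice 16 and 55 the counts were 3 higher and 2 lower, against 3.32% and 3.16% of all genes.

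The genes that process, bind or degrade collagen were counted from fixed lists, and none of them passed the threshold in edgeR in the 4 group comparisons. Of 31 genes of collagen biosynthesis, 3 were higher and 0 lower at an unadjusted p under 0.05 when sedentary SCA1 mice were set against sedentary WT mice, where 5.55% of all genes were higher and 4.55% lower. The median log2FC of the list was 0.16. Pcolce, the enhancer of procollagen C-proteinase, had the lowest p, with a log2FC of 1.12 ± 0.32 (adjusted p = 0.274), and 1.44 ± 0.32 in WT exercise against WT sedentary mice (adjusted p = 0.373). Of 8 collagen receptors, 2 were higher and 0 lower in SCA1 sedentary mice, against the same 5.55% and 4.55% of all genes. Mrc2, a receptor that takes up collagen fragments, had the lowest p (log2FC 1.08 ± 0.28, adjusted p = 0.242). In WT exercise mice Mrc2 had a log2FC of 0.99 ± 0.28 (adjusted p = 0.679).

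Of 9 tested genes of collagen turnover, 1 was higher and 1 lower in SCA1 sedentary mice, and 2 were higher and 0 lower in WT exercise than in WT sedentary mice. Of all genes, 5.55% were higher and 4.55% lower in the former comparison and 2.78% and 1.91% in the latter, and these shares also stand beside the counts that follow. Fap, a protease of fibroblasts, had the lowest p of the list in the latter (log2FC 2.13 ± 0.45, adjusted p = 0.355). Of 11 tested partners of fibrils, 6 were higher and 0 lower in each of these comparisons (5.55% and 2.78% of all genes higher), with a median log2FC of 0.73 and 0.65. Fn1, the matrix protein fibronectin, led both, with a log2FC of 0.91 ± 0.23 (adjusted p = 0.239) and 0.80 ± 0.23 (adjusted p = 0.681). Ogn, Dcn and Lum are in the list of fibril partners and in that of meninges and fibroblasts, so these lists are not independent. Of 15 partners in the basement membrane, such as laminins and nidogens, 4 and 2 were higher and 0 lower against the same shares, with a median log2FC of 0.25 and 0.23. Within SCA1 mice, exercise against sedentary, the median of these 5 lists lay between -0.28 and -0.10.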

How the data were processed

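Cerebellar RNA of 12 mice, 3 in each of 4 groups, was depleted of ribosomal RNA and sequenced in pairs. The authors trimmed reads with fastp 0.24.0, aligned them to GRCm39 with STAR 2.7.10a and deposited the raw counts of read pairs per gene that STAR wrote, unstranded and for each strand. The tools and versions, with FastQC 0.11.9, are those of the submitters' processing notes, and the annotation that was counted is not given in the sources used here. The RNA of 2 mice was of lower integrity and was fragmented for a shorter time, and which mice these were is not used here.

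The reverse-strand counts were used. They were matched by Ensembl ID to GENCODE M39 on GRCm39 (56323 of 56941 genes), which gave symbols, merged exon lengths and, with the GRCm39 genome, the sequences. The authors deposited no CPM or log2 values, and both were derived here from their counts. In R 4.3.3, edgeR 4.0.16 filtered genes with filterByExpr, scaled libraries by TMM and fitted 1 quasi-likelihood model of the 4 groups to all 12 libraries, tested on simulated data. Adjusted p-values are Benjamini-Hochberg values over 20341 genes in each of 7 comparisons. A call needed an adjusted p under 0.05 together with a log2FC above 0.5 or below -0.5. Exact two-sided permutation of a single gene with 3 mice against 3 cannot give a p below 0.1, and gave 0.1 for each gene with no overlap. P-values measure the spread between mice. The depth of 20556802 to 32127508 counts limits genes with few counts. Reads that map to several places were not counted by STAR, which bears on near-identical genes.

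Named with statistics were genes called or with an unadjusted p under 0.05, and the highest and lowest log2FC of each comparison. Named with levels were the 5 highest fibrillar, all 6 basement membrane and the 8 highest other genes per kilobase in WT sedentary mice, Col10a1, and the 5 with the largest ratio between libraries. Col11a2, Col16a1, Col24a1 and Col6a3 among the genes high in mice 16 and 55, Col5a3, and the members with no overlap were named after their values were seen. The members and the lists of genes (collagen biosynthesis, receptors, turnover, fibril and basement membrane partners, and markers of meninges, mural cells, endothelium, choroid plexus, Purkinje cells, granule cells, molecular layer interneurons, astrocytes, oligodendrocytes, microglia, erythrocytes, brainstem and chromosome Y) were chosen with earlier results of these data known. The alternatives were DESeq2 1.42.0, RLE scaling, genes with at least 1 count, unstranded counts, the 2 groups alone, the omission of single mice, the omission of mice 16 and 55, a covariate from chromosome Y genes, a block for bands of mouse numbers, no limit on the log2FC, and the longest transcript as length.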

Additional observations from a re-analysis of the deposited data

How the results depend on the processing

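With the settings above, 0 of 43 collagen genes were called in each of the 7 comparisons. For sedentary SCA1 against sedentary WT mice the number was 4 with DESeq2, 2 without mice 16 and 55 and 1 (Col12a1) with a block for bands of mouse numbers, beside 201 (1.03%), 205 (1.00%) and 55 (0.270%) of all genes. For exercised against sedentary WT mice it was 3 with DESeq2, 2 with genes of at least 1 count, 5 with edgeR on the 2 groups, 2 without mice 16 and 55 and 2 with the bands as a block, beside 63 (0.268%), 45 (0.128%), 150 (0.777%), 64 (0.312%) and 33 (0.162%) of all genes. Leaving out single mice gave 0 to 1 in this comparison, the 1 being Col8a1 without SCA1 sedentary mouse 195 beside 19 genes (0.0909%) in all, and 0 in the other 6. The remaining 5 comparisons had 0 calls in every alternative run. Between SCA1 and WT mice over both activity groups, Col12a1 had an edgeR adjusted p of 0.018 without mice 16 and 55. It was not called because its log2FC lay within the limit. The cause of these changes in the number of calls was not tested.

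With the longest transcript as length, the fibrillar share of the collagen level in WT sedentary mice was 31.1% and the basement membrane share 8.69%. The median log2FC of the family ranged from 0.17 to 0.76 between SCA1 sedentary and WT sedentary mice and from 0.15 to 0.34 between WT exercise and WT sedentary mice, and the sign did not change in either. Between SCA1 and WT mice over both activity groups it was -0.01 with the bands as a block. Signs turned for Col25a1 (0.23 without mouse 16, -2.87 to 0.23 over single omissions) and Col6a5 (-1.03 without mice 16 and 55, and -1.51 without mouse 55 in a range of -1.51 to 2.10) when SCA1 mice with and without exercise were compared, for Col24a1 in the interaction (-0.10 without mouse 55, in a range of -0.10 to 2.25) and for Col24a1 between SCA1 and WT mice (-0.35 with the bands as a block), and none of these values was called. No paired analysis was possible because each mouse has its own number and the groups share none.

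Depth limits the genes with few counts, such as Col6a5, with 1 to 53 counts per library, and Col10a1, which had 9 counts on its own strand over the 12 libraries and 992 on the other, so that unstranded counts cannot be read as its level.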

Other observations

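Markers of other cerebellar cells were summed in the same libraries. Over the 12 libraries the sums ran from 949 to 1290 CPM for 7 genes of molecular layer interneurons, from 2552 to 4004 CPM for 8 genes of astrocytes and Bergmann glia, from 79.1 to 157 CPM for 7 genes of microglia and from 15.5 to 81.3 CPM for 5 genes of erythrocytes. The microglia sum was highest in SCA1 sedentary mouse 16 and next in SCA1 exercise mouse 55, at 157 and 130 CPM. The Purkinje cell list had a median log2FC of -0.77 between SCA1 sedentary and WT sedentary mice. All 8 genes were lower at an unadjusted p under 0.05 and 2 were called, beside 4.55% of all genes lower and 0.0344% called. The summed level of the list was 4241, 5761 and 5520 CPM in SCA1 sedentary mice and 7083 to 7959 CPM in WT sedentary mice. With exercise it was 7013, 6770 and 5750 CPM in SCA1 mice and 7442 to 7919 CPM in WT mice. Whether this bears on the level of Col18a1, whose log2FC was also negative, was not tested.

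The chains of one collagen type did not keep a fixed ratio per kilobase across the libraries. The ratio of Col5a1 to Col5a2, chains that join in type V, was 13.7, 20.4 and 14.8 in WT sedentary mice, 18.6, 11.96 and 10.2 in WT exercise mice, 4.89, 10.8 and 7.82 in SCA1 sedentary mice and 7.03, 5.91 and 7.20 in SCA1 exercise mice. It was lower in all SCA1 exercise than in all WT exercise mice and lower in all SCA1 sedentary than in all WT sedentary mice. This ratio was singled out from several computed ratios of chains after the values were seen, and was not tested. Col5a2 had 52 to 175 read counts per library. The ratio of Col4a5 to Col4a6 was 2.75 ± 0.49 in WT sedentary mice (SD, n = 3) and 1.85 to 1.87 on average in the other groups. The values overlapped, since WT sedentary mouse 192 stood at 2.21 and SCA1 exercise mouse 122 at 2.29. The ratio of Col6a1 to Col6a2 ran from 2.12 to 7.20 over the 12 libraries.

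In the 300 bases around the start of the canonical transcript (250 before it), on both strands, the motif TATAAA was found in 18.2% of the 44 collagen genes and 13.2% of 21757 protein-coding genes, GGGCGG in 52.3% and 42.5%, and CCAAT in 38.6% and 39.9%. GGGCGG was found in 8 of 11 fibrillar genes, 4 of 6 basement membrane genes and 11 of 27 of the others. These are matches of letters and not sites of binding.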
